A study of Mus musculus with 10 samples.

Results

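The mouse circadian clock output genes described here are Per1, Per2, Dbp, Bhlhe40 and Noct, measured in liver RNA on Affymetrix MG_U74Av2 arrays. They were chosen by name, as the probe sets that the platform annotation assigns to each of these genes alone, and are 5 of 8251 genes measured. Where a gene had several probe sets, the brightest over the 10 arrays stood for it. Only Noct had a choice, among 3, so the 5 genes hold 7 probe sets in all.

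The liver clock is a feedback loop in which CLOCK and BMAL1 activate E-box genes and the PER and CRY proteins, made from such genes, hold that activity back. Output genes carry the rhythm into metabolism, and several of them also respond to feeding, insulin, glucocorticoids and cAMP. SREBP-1 and SREBP-2, the transcription factors of lipid and cholesterol synthesis, are themselves under feeding control in liver and need the escort protein SCAP for their activation.

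The study used male mice in 5 groups. TgSREBP-1a mice overexpressed human SREBP-1a, and TgSREBP-2 mice human SREBP-2, in each case the nuclear form that is active without cleavage. Both lines, with wild type littermates as controls, were aged 12 to 16 weeks and spent 2 weeks on a diet described as high protein/low carbohydrate to raise transgene expression. These littermates are called the high-protein wild type here. Scap-/- mice lost Scap through the inducible MX1-Cre and, like the wild type mice paired with them, were 10 to 12 weeks old, ate Teklad chow, received 4 injections of polyinosinic-polycytidylic acid and were killed 14 days after the last injection. Each group is a single 20 µg pool of RNA from 5 mice, measured on 2 arrays. The values below therefore compare pools: errors and p-values hold the spread between hybridisations and none between mice. Mice lived on 12 h of light and 12 h of dark, and the hour of liver removal is not given in the sources used here. For rhythmic transcripts, a difference between pools and a difference in hour cannot be told apart.

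Duplicate arrays correlated at 0.9921 to 0.9978 over genes. Between duplicates, 0 and 6 genes lay 1.5-fold apart in the chow-fed pools and 55 to 151 in the pools on the high-protein diet, while the test shares 1 variance per gene over all pools. Called genes are those that reached a 1.5-fold difference and an adjusted p under 0.05 in limma. The share of the 8251 genes called was 7.37% for TgSREBP-1a and 2.57% for TgSREBP-2 against their wild type pool, 1.66% for Scap knockout against its own, 5.19% between the transgenic pools and 5.62% between the wild type pools. The comparisons with each transgene share the same wild type arrays. The 4 measured hepatocyte markers had a summed log2 signal of 14.76 to 14.85 over the arrays. In TgSREBP-1a their median was -0.42 against wild type and -0.38 against TgSREBP-2, all 4 had an unadjusted p under 0.05 in both comparisons, and Ttr, the transthyretin gene, was called lower in each. The part of this shift in the TgSREBP-1a results below was not tested. In whole liver, fewer cells of a type and less RNA per cell cannot be told apart.

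Across the 5 genes the pools differed in Noct, Bhlhe40 and, by less, Dbp, while Per1 and Per2 were called in none of the 5 comparisons. Noct was 1.78-fold lower in TgSREBP-1a and 2.95-fold higher in TgSREBP-2 than in wild type. Bhlhe40 was higher in both transgenic pools and lower in Scap knockout. The calls numbered 2 of 5 genes for TgSREBP-1a (7.37% of all genes), 3 for TgSREBP-2 (2.57%), 1 for the Scap knockout (1.66%), 1 between the transgenic pools (5.19%) and 1 between the wild type pools (5.62%).

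**Figure D1:**
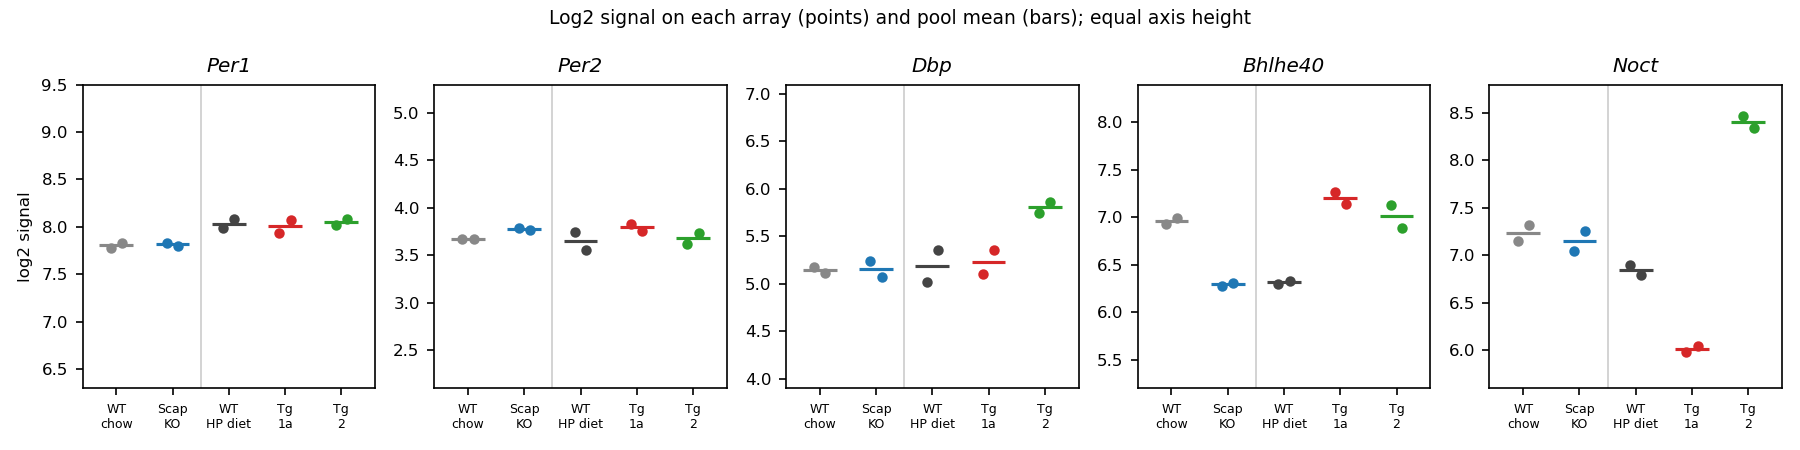
Log2 signal (vertical axis, the same height in each panel) of the 5 genes on each array (points) with the mean of each pool (bars). WT, wild type. HP diet, high-protein diet. Tg 1a and Tg 2, TgSREBP-1a and TgSREBP-2. Noct runs from a mean of 6.02 in TgSREBP-1a to 8.41 in TgSREBP-2, Bhlhe40 has low and high pools in both sets, and Per1 and Per2 lie nearly level.

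**Figure D2:**
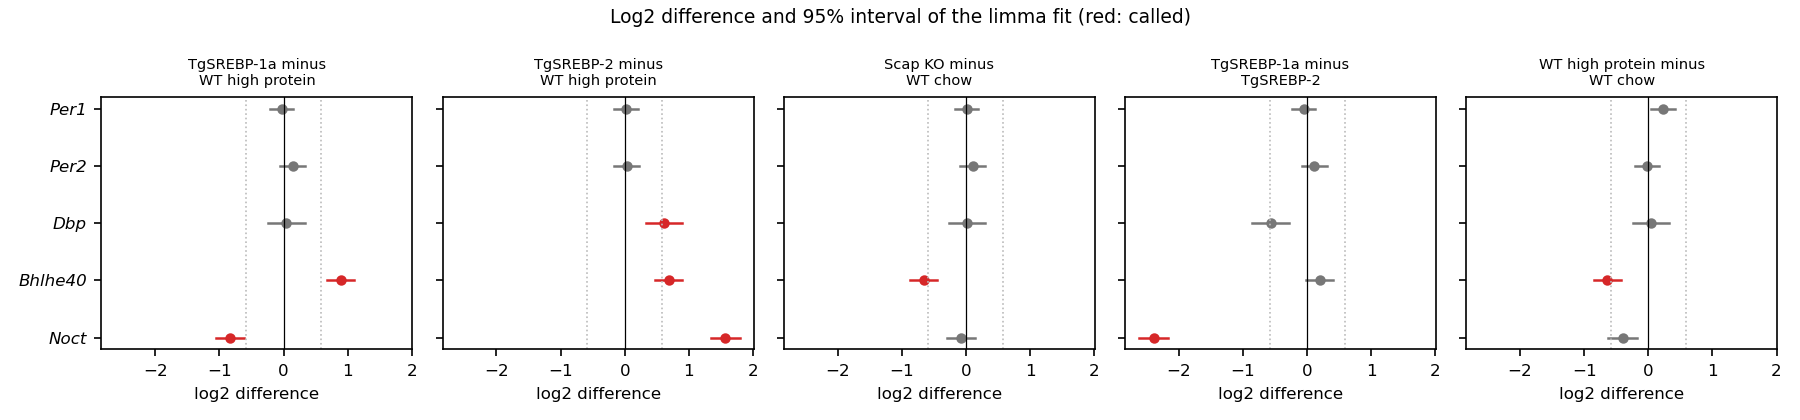
Log2 difference between pools (horizontal axis) with the 95% interval of the limma fit for the 5 genes in 5 comparisons. Called values are red, and dotted lines mark a 1.5-fold difference. The interval of Noct in TgSREBP-1a against TgSREBP-2 runs from -2.62 to -2.17, and all intervals of Per1 and Per2 lie inside the dotted lines. The signal of Per2 lay near the bottom of the array, so its intervals do not bound a change in that transcript.

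Per1 and Per2 encode the repressors of the loop. Per1 had log2 signals of 7.99 and 8.08 in the high-protein wild type, 7.94 and 8.07 in TgSREBP-1a, and 8.02 and 8.08 in TgSREBP-2. It had 7.78 and 7.83 in chow-fed wild type and 7.83 and 7.80 in Scap knockout. All 6 arrays of the transgenic set thus lay above all 4 of the chow-fed set, and within each set the pools overlapped. The difference between TgSREBP-1a and wild type was -0.03 ± 0.08 (moderated SE, n = 2 arrays per group, as for all such errors here), with a 95% interval of -0.21 to 0.15. For TgSREBP-2 it was 0.02 (-0.16 to 0.20), and for Scap knockout 0.01 (-0.17 to 0.19). Between the wild type pools Per1 stood at 0.23 ± 0.08 on the high-protein diet over chow, with all 4 array pairs in that direction, and did not pass the test (limma adjusted p = 0.0635).

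The bases upstream of the first of 2 RefSeq start sites of Per1 along the chromosome are shown because they carry the perfect E-box, CACGTG, that CLOCK and BMAL1 bind. The window is chr11:69098699-69098948, plus strand, build GRCm38.p6, read from the 250 bases before the start. Capitals mark the E-box and matches to the CCAAT box, which reads ATTGG on the other strand.

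Per1: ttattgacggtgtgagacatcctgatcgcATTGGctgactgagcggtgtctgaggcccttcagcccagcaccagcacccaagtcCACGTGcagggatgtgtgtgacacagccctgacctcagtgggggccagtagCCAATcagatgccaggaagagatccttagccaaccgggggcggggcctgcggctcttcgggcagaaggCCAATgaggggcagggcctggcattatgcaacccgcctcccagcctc

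The E-box begins at position -166 from the start. Of 32851 RefSeq windows of this length, 6.02% hold CACGTG. The second Per1 window has no such match. Windows were found for 3 of the 5 genes, Per1, Dbp and Noct.

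Per2 gave a signal near the bottom of the array. Its log2 values were 3.75 and 3.56 in the high-protein wild type, 3.83 and 3.76 in TgSREBP-1a, and 3.62 and 3.74 in TgSREBP-2. They were 3.67 and 3.67 in chow-fed wild type and 3.79 and 3.77 in Scap knockout. Its mean of 3.72 ranked at percentile 4.3 of all probe sets, below the lowest mean (3.81) of the 15 control probe sets for Bacillus transcripts on the array. Means of these controls ran up to 7.12, with a median of 4.14, so they are not a uniform floor. The pool means of Per2 spanned 0.14, and every difference had an adjusted p of at least 0.329 in limma. At this signal a difference in Per2 was not detectable.

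Bhlhe40, also called DEC1, is a basic helix-loop-helix repressor that binds E-boxes and responds to feeding and insulin as well as to the clock. Its log2 signal was 7.27 and 7.14 in TgSREBP-1a and 7.13 and 6.89 in TgSREBP-2, against 6.30 and 6.33 in the high-protein wild type. In the chow-fed set it was 6.28 and 6.31 in Scap knockout against 6.93 and 6.99 in wild type. Scap knockout and the high-protein wild type had the low values, the other pools the high ones, and no high array overlapped a low one.

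Bhlhe40 rose 1.86-fold in TgSREBP-1a (0.89 ± 0.09, limma adjusted p = 8.75e-05) and 1.62-fold in TgSREBP-2 (0.69 ± 0.09, limma adjusted p = 0.00176). It fell by 0.66 ± 0.09, or 1.58-fold, in Scap knockout (limma adjusted p = 0.00283). All 4 array pairs had the same sign in each of these comparisons. Between the transgenic pools it differed by 0.20 ± 0.09 (95% interval -0.01 to 0.41, limma adjusted p = 0.266), so a difference between the isoforms was not shown. The high-protein wild type pool was lower than the chow-fed one by 1.56-fold (-0.64 ± 0.09, limma adjusted p = 0.00147). These wild type pools differ in diet, age, line and injections together, which cannot be told apart.

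The smaller of these differences lay close to the threshold. Without replicate 1 of TgSREBP-2 the increase there was 0.57, under 1.5-fold, and without replicate 2 of chow-fed wild type the decrease in Scap knockout had a limma adjusted p of 0.0527. Macrophage markers moved along with Bhlhe40 in part. Of 10 measured, 5 were called higher in TgSREBP-1a (median 0.62) and 3 in TgSREBP-2 (median 0.32). Between the wild type pools 4 were called lower on the high-protein diet (median -0.56). In this order the called share of all genes was 7.37%, 2.57% and 5.62%, and it was 1.66% in Scap knockout. An unadjusted p under 0.05 in limma was reached by 10, 7 and 10 of the macrophage markers in the first 3 comparisons. Their summed log2 signal was 12.12 to 12.19 in TgSREBP-1a, 11.80 to 11.90 in TgSREBP-2, and 11.43 on both wild type arrays of that diet. In Scap knockout 0 of 10 macrophage markers were called in limma, with 2 at an unadjusted p under 0.05 and a median of -0.09, and their sums were 11.94 to 11.96 against 11.98 to 12.07 in wild type, while Bhlhe40 fell there. Other marker lists moved with Bhlhe40 in some comparisons only. Of 8 lymphocyte markers Ighm alone was called, higher in TgSREBP-1a, lower in Scap knockout and lower in the high-protein than in the chow-fed wild type, which are the directions of Bhlhe40. The summed lymphocyte signal was 10.23 to 10.25 in Scap knockout against 10.46 to 10.50 in its wild type, and 10.75 to 10.77 in TgSREBP-1a against 10.25 to 10.41. In TgSREBP-2, where Bhlhe40 rose, limma called 0 of 8 lymphocyte markers, with 0 at an unadjusted p under 0.05. Of 7 endothelial markers Cdh5 and Lyve1 rose in TgSREBP-1a. Limma called 0 of 7 in TgSREBP-2 and in Scap knockout, with 1 and 0 at an unadjusted p under 0.05. Hba-a1, among 3 measured red cell markers, rose in both transgenic pools, and Alas2 fell in TgSREBP-1a. The summed red cell signal was higher in Scap knockout (11.76 to 11.78) than in its wild type (11.57 on both arrays), against the direction of Bhlhe40. The part of RNA from these cell types in the Bhlhe40 results was not tested.

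The span of Bhlhe40 over pool means, 0.91, fell short of the 1 log2 unit set for naming genes of like pattern. It was nevertheless compared, a choice made after its values were seen. Among 1435 genes whose pool means spanned at least 0.58, the genes with the smallest root mean square difference of centred means over the 5 pools were the class I histocompatibility genes H2-K1 (0.09 log2), H2-D1 (0.10) and H2-Q4 (0.11), which present peptides on the cell surface. H2-K1 had pool means of 12.06 in Scap knockout and 12.58 in its wild type, and of 12.09, 12.78 and 12.61 in wild type, TgSREBP-1a and TgSREBP-2 on the high-protein diet.

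Dbp encodes a PAR bZIP activator, a direct CLOCK and BMAL1 target that drives rhythmic detoxification genes in liver. Its log2 signal was 5.75 and 5.86 in TgSREBP-2, against 5.02 and 5.36 in wild type of the same diet and 5.10 and 5.36 in TgSREBP-1a. It was 5.18 and 5.11 in chow-fed wild type and 5.24 and 5.07 in Scap knockout. The TgSREBP-2 arrays stood above all 8 others, whose pools overlapped each other. Dbp rose 1.53-fold in TgSREBP-2 (0.61 ± 0.13, limma adjusted p = 0.021), with all 4 array pairs in that direction.

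This call was not firm. It was lost without replicate 1 of wild type (0.44, limma adjusted p = 0.124), without replicate 1 of TgSREBP-2 (adjusted p = 0.0836) or replicate 2 (adjusted p = 0.0962), and when limma was fitted to the transgenic set alone (adjusted p = 0.0832) or to the 4 arrays compared (adjusted p = 0.0694). With the replicate number as a block the adjusted p was 2.89e-04 at the same difference. Against TgSREBP-2, TgSREBP-1a was lower by 1.49-fold (-0.57 ± 0.13, limma adjusted p = 0.0156), just short of 1.5-fold. Leaving out single arrays moved this difference both ways, to -0.70 without replicate 2 of TgSREBP-1a and -0.63 without replicate 1 of TgSREBP-2, which were called, and to -0.44 without replicate 1 of TgSREBP-1a (adjusted p = 0.0974) and -0.51 without replicate 2 of TgSREBP-2 (adjusted p = 0.0994). Fitted to the transgenic set alone it had an adjusted p of 0.0568. In TgSREBP-1a against wild type Dbp stood at 0.04 (95% interval -0.24 to 0.33), and in Scap knockout at 0.01 (-0.27 to 0.30). The Dbp probe set ranked at percentile 28.0 of the array, so these are differences of a dim signal.

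Noct encodes nocturnin, a rhythmic phosphatase that acts on NADP(H) and is known in liver for its link to lipid handling. Its transcript differed more between the pools than that of any other of the 5 genes, with means spanning 2.39. The bases before its start are shown for that reason. The window is chr3:51224197-51224446, plus strand, build GRCm38.p6, and capitals mark CCAAT boxes on either strand.

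Noct: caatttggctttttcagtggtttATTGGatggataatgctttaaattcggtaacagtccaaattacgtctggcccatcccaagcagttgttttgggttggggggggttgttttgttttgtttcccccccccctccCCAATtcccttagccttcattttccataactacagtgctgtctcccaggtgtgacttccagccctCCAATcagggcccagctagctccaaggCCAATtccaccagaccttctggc

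The window holds 4 CCAAT boxes, beginning at -227 on the minus strand and at -115, -50 and -23 on the plus strand. CCAAT is the letter core read by the factor NF-Y, a known partner of SREBPs at lipid gene promoters. At least 1 CCAAT stands in 33.8% of the 32851 windows and at least 4 in 0.84%. The cut of 4 is the count of the Noct window itself, so the last share is no test. The first Per1 window holds 3 CCAAT boxes and the Dbp window 1. A part of these boxes in the Noct result was not tested. The window has no match to the E-box CACGTG, to TTATGTAA, the D-box of DBP and its relatives (0.819% of windows), to the cAMP response element TGACGTCA (1.55%) or to TCACNCCAC, a form of the sterol response element (1.05%), each searched on both strands. The windows of Per1 and Dbp hold none of the last 3 motifs. A match of letters is a description and not a binding site.

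Noct had log2 signals of 8.47 and 8.34 in TgSREBP-2, 6.90 and 6.79 in the high-protein wild type, and 5.98 and 6.05 in TgSREBP-1a. It had 7.15 and 7.32 in chow-fed wild type and 7.05 and 7.26 in Scap knockout. The TgSREBP-2 arrays were the highest of the 10 and the TgSREBP-1a arrays the lowest, and only the chow-fed wild type and Scap knockout pools overlapped.

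Noct rose 2.95-fold in TgSREBP-2 (1.56 ± 0.10, limma adjusted p = 6.99e-06) and fell 1.78-fold in TgSREBP-1a (-0.83 ± 0.10, limma adjusted p = 2.32e-04). The direct comparison put TgSREBP-1a below TgSREBP-2 by 5.25-fold (-2.39 ± 0.10, limma adjusted p = 1.13e-07). These 3 calls were kept without any 1 of the arrays compared, where the differences ran from 1.5 to 1.63, from -0.88 to -0.78 and from -2.46 to -2.33. In Scap knockout Noct stood at -0.08 ± 0.10 (95% interval -0.30 to 0.14). The high-protein wild type was below chow-fed wild type by 0.39 ± 0.10 (log2 difference -0.39, limma adjusted p = 0.0214), which is under 1.5-fold.

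Of the other probe sets assigned to Noct alone, the dimmer one had the same signs at smaller size and the brighter one did not show this pattern. Both carry the suffix _f_at, given by the manufacturer to probes that match several members of a sequence family. Probe set 162384_f_at, at a mean of 3.97, had 4.37 and 4.26 in TgSREBP-2, 4.10 and 3.92 in the high-protein wild type and 3.69 and 3.90 in TgSREBP-1a. That mean lies between the lowest mean (3.81) and the median (4.14) of the Bacillus control sets. Its differences were 0.30 in TgSREBP-2, -0.21 in TgSREBP-1a and -0.52 between these pools (limma adjusted p = 0.122, 0.172 and 0.00573, none of 1.5-fold). They have the signs of the chosen probe set, but come from a signal at percentile 7.5 of the array and are not taken as support. Probe set 101787_f_at, at a mean of 6.99, differed by -0.18 in TgSREBP-2 and -0.23 in TgSREBP-1a (limma adjusted p = 0.621 and 0.389). Between the transgenic pools it differed by -0.05 (limma adjusted p = 0.923). Averaging all 3 probe sets left 0.56 in TgSREBP-2 and -0.42 in TgSREBP-1a, both under 1.5-fold. A further 5 probe sets that the annotation gives to Noct together with Sgip1, Cog6 or Gm10845 were not used to name the gene. Their pool means spanned 0.22 to 0.49. The Noct result thus rests on probe set 99535_at.

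**Figure D3:**
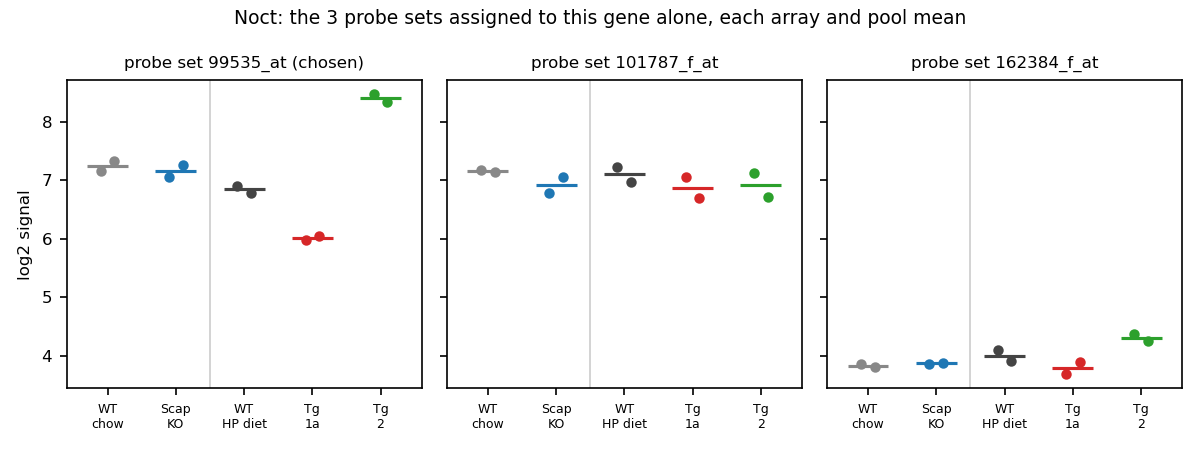
Log2 signal (vertical axis, shared) of the 3 probe sets assigned to Noct alone, on each array (points) and as pool means (bars). Pools are labelled as WT (wild type) on chow or the high-protein (HP) diet, Scap KO, and Tg 1a and Tg 2 for the transgenic pools. The pool means of the chosen probe set span 2.39, against 0.28 and 0.52 for the others.

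Markers of exocrine pancreas moved in the direction of Noct in the transgenic pools and against it between the wild type pools. All 7 measured were lower in TgSREBP-1a (median -2.87), and 2 were higher in TgSREBP-2 (median 0.57). Their summed log2 signal was 10.40 on both TgSREBP-1a arrays, 13.97 to 14.01 in wild type and 14.42 to 14.43 in TgSREBP-2. In Scap knockout all 7 were also lower (median -2.04), with sums of 10.83 to 10.90 against 12.93 to 12.96, while Noct stood at -0.08 there. On the high-protein diet 6 of 7 were higher than on chow in wild type (median 1.06), while Noct stood at -0.39. Their part in the Noct result was not tested.

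By the rule for like patterns, the genes nearest to Noct were Saa3, an acute phase serum amyloid (root mean square difference 0.30 log2 over 5 pools), Pradc1 (0.32) and Etfbkmt (0.37). Saa3 had pool means of 8.20 in TgSREBP-2, 6.90 in wild type and 6.36 in TgSREBP-1a, and Pradc1 had 6.87, 4.72 and 4.55. Pradc1 was thus close to wild type in TgSREBP-1a, where Noct was lower. Etfbkmt had 8.01, 7.43 and 5.92 in the same order. Its mean in chow-fed wild type (6.85) lay below that of the high-protein wild type, the reverse of Noct. Saa3 was also higher in Scap knockout (7.85) than in its wild type (7.45), where Noct was level.

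**Figure D4:**
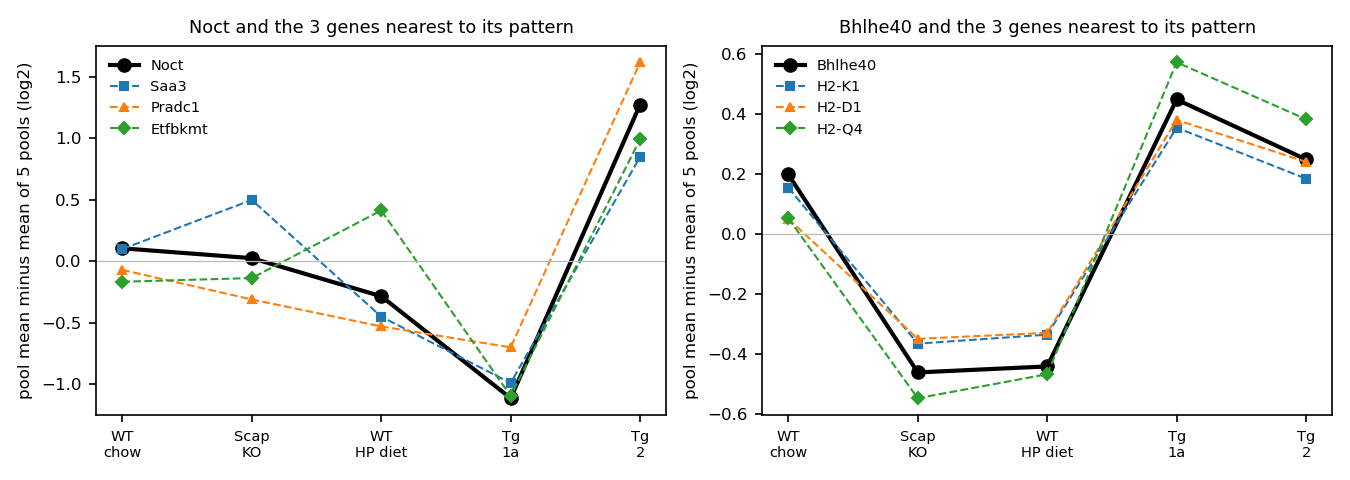
Pool means minus the mean of the 5 pools (vertical axis, log2) for Noct and Bhlhe40 (thick lines) and the 3 genes nearest to each (dashed lines). Saa3, Pradc1 and Etfbkmt have, like Noct, their lowest mean in TgSREBP-1a and their highest in TgSREBP-2, and differ from it in other pools. H2-K1, H2-D1 and H2-Q4 lie within 0.11 log2 (root mean square) of Bhlhe40.

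The rest of the clock was read from gene lists. The 7 measured core genes were Arntl, Clock, Npas2, Per3, Cry1, Cry2 and Timeless. Limma called 0 of 7 in either transgenic pool or in Scap knockout, where 1, 0 and 1 had an unadjusted p under 0.05. The called share of all genes in these comparisons was 7.37%, 2.57% and 1.66%, so 0 of 7 does not set these genes apart. Their medians were -0.10, -0.07 and -0.04, against -0.03, -0.02 and 0.00 over all genes. Arntl, which encodes the activator BMAL1, had 6.49 and 5.97 in TgSREBP-1a against 6.72 and 6.55 in wild type (-0.41 ± 0.19, limma adjusted p = 0.181). Clock, its partner, differed by -0.18 and -0.07 in the TgSREBP-1a and TgSREBP-2 pools. Npas2, which can stand in for Clock, differed by -0.07 and -0.18. Per3 differed by -0.10 and -0.07, and Cry2 by -0.10 and -0.22, also short of the test. Cry1, a repressor that pairs with PER, stood at -0.30 ± 0.09 in TgSREBP-1a (limma adjusted p = 0.0467, under 1.5-fold). Timeless, a homologue of the fly clock gene, moved by at most 0.04 in any comparison.

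Between the wild type pools Cry1 was lower on the high-protein diet, at 7.28 and 7.23 against 7.84 and 7.94 on chow (-0.63 ± 0.09, limma adjusted p = 0.00136). Its probe set is an _f_at set. The call was lost without replicate 2 of chow-fed wild type, with 32 added on the linear scale and on the mean of its probe sets. The other 2 sets of Cry1 had signals of 3.02 to 3.38, below the lowest mean of the Bacillus control sets, and do not bear on it. It was the only 1 of the 7 core genes called there, and Cry2 stood at 0.33 ± 0.10 (limma adjusted p = 0.0464, under 1.5-fold).

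Nr1d1 and Nr1d2 encode the REV-ERB repressors of Arntl and, like Dbp, are driven through E-boxes. Nr1d2 had 6.66 and 6.22 in TgSREBP-2, 5.85 and 5.78 in wild type and 5.93 and 5.70 in TgSREBP-1a. It rose in TgSREBP-2 by 0.63 ± 0.14, or 1.54-fold (limma adjusted p = 0.0321), and was lower in TgSREBP-1a than in TgSREBP-2 by 1.55-fold (limma adjusted p = 0.0156). The TgSREBP-2 call was lost under 6 of 12 alternatives and the direct one under 5 of 12, both in the fits to the transgenic set alone and to the 4 arrays compared and with 32 added on the linear scale. The TgSREBP-2 call was also lost without either wild type array or TgSREBP-2 replicate 1. The direct call was also lost without replicate 2 of TgSREBP-1a or replicate 1 of TgSREBP-2. Nr1d1 did not share this increase, with 7.34 and 7.31 in TgSREBP-2 against 7.45 and 7.52 in wild type (-0.16 ± 0.10, limma adjusted p = 0.461). Tef, a PAR bZIP relative of Dbp, had 9.06 and 9.30 in TgSREBP-2 against 8.91 and 8.90 (0.27 ± 0.10, limma adjusted p = 0.168). Dbp, Nr1d2 and Tef thus all had their highest arrays in TgSREBP-2, Dbp and Nr1d2 with calls that depend on the arrays kept and Tef with none.

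Between the wild type pools both REV-ERB genes were higher on the high-protein diet. Nr1d1 had 7.45 and 7.52 against 6.55 and 6.70 (0.86 ± 0.10, 1.82-fold, limma adjusted p = 3.11e-04). Nr1d2 stood at 0.73 ± 0.14 (limma adjusted p = 0.00626), a call lost without replicate 2 of chow-fed wild type and with 32 added on the linear scale. Dbp, by contrast, stood at 0.05 ± 0.13 there (95% interval -0.24 to 0.33). Rora, an activator of Arntl, had no call in the 3 genotype comparisons and reached 0.42 ± 0.09 in TgSREBP-1a (limma adjusted p = 0.0102, under 1.5-fold), but -0.20 on its dimmer probe set. Of 3 measured genes of the REV-ERB and ROR list, only Nr1d2 was called in those comparisons.

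Nfil3, the repressor that competes with DBP for D-boxes, gave different answers on its probe sets. The brighter one, an _f_at set, stood at -0.22 ± 0.09 in TgSREBP-1a (limma adjusted p = 0.121). On the mean of both, Nfil3 was called lower in TgSREBP-1a. The other, 102955_at, had 6.17 and 6.16 in TgSREBP-1a against 7.32 and 6.98 in wild type, a difference of -0.98 ± 0.12 (limma adjusted p = 3.00e-04), and -0.40 ± 0.12 in TgSREBP-2 (limma adjusted p = 0.105). On the chosen probe sets, 0 of 2 measured genes of the PAR bZIP and NFIL3 list were called in limma in any comparison, with 1 or 2 at an unadjusted p under 0.05 in each. Of 9 kinases and ubiquitin ligase parts that act on clock proteins, 0 were called in limma in any comparison, with 0 to 4 at an unadjusted p under 0.05. Over all genes 1.66% to 7.37% were called in a comparison, so 0 of 2 and 0 of 9 do not set these lists apart.

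**Figure D5:**
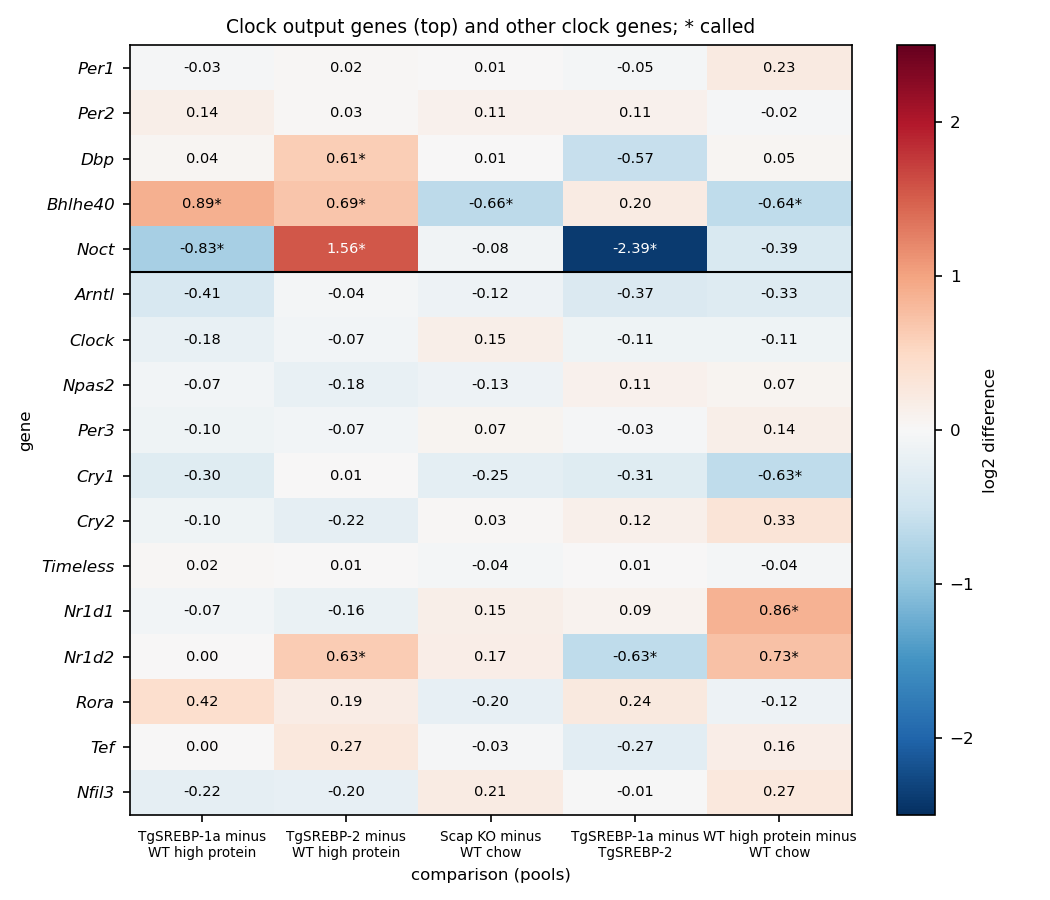
Log2 differences (colour and printed value) of the 5 clock output genes (above the line) and 12 other measured clock genes in 5 comparisons of pools, with called values marked by an asterisk. Outside the 5 genes, the called values are those of Nr1d2 in TgSREBP-2, Nr1d2 between the transgenic pools, and Cry1, Nr1d1 and Nr1d2 between the wild type pools.

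Lists of genes earlier grouped by phase were read the same way, and share members with the lists above. The called share of all genes was 7.37%, 2.57% and 1.66% in TgSREBP-1a, TgSREBP-2 and Scap knockout, and 5.62% between the wild type pools. Beside these shares, counts of 0 do not set lists this short apart. Of 9 measured genes earlier given as late phase (light to dark), 0 were called in limma in TgSREBP-1a and 0 in Scap knockout. None had an unadjusted p under 0.05 in limma there either. Dbp and Nr1d2, 2 of the 9, rose in TgSREBP-2 (list median 0.03). Of 5 measured genes earlier given as opposite phase, 0 were called in limma in TgSREBP-1a, TgSREBP-2 or Scap knockout against wild type. This count is on the chosen probe sets. In these comparisons 2, 1 and 2 had an unadjusted p under 0.05 in limma, with medians of -0.22, -0.07 and -0.12. Nfil3 is a member of this list, and its other probe set was called lower in TgSREBP-1a, as given above. In wild type 2 of the first list rose on the high-protein diet and 1 of the second, Cry1, fell.

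Rhythmic liver genes outside the clock were called in both directions. Among all genes the called share, in the order TgSREBP-1a, TgSREBP-2 and Scap knockout against wild type, was 7.37%, 2.57% and 1.66%. The list's counts were not tested against these shares. Of the 17 measured, 4 rose and 3 fell in TgSREBP-1a, 1 rose and 1 fell in TgSREBP-2, and 2 rose and 3 fell in Scap knockout, with medians of -0.06, 0.03 and 0.05. Nampt, which makes NAD+ precursor and is driven by CLOCK and BMAL1, rose in both transgenic pools, by 1.03 ± 0.12 with SREBP-1a and 1.16 ± 0.12 with SREBP-2. In TgSREBP-1a the phosphatidate phosphatase gene Lpin1, the methyltransferase gene Inmt and the tubulin gene Tubb2a also rose (1.26, 0.80 and 2.04). Elovl3, Nr1i3 and Ppara fell there by 0.81, 0.97 and 1.24, Elovl3 without a call when replicate 1 of TgSREBP-1a was left out. Nr1i3 encodes CAR, a target of the PAR bZIP factors, and its signal was 8.19 and 8.37 in TgSREBP-1a against 9.21 and 9.29. Dbp and Tef stood at 0.04 and 0.00 there, and Hlf of the PAR bZIP list was not measured. A link of these factors to the Nr1i3 values was not tested. In TgSREBP-2 the tRNA synthetase gene Tars fell by 0.68, a call lost when replicate 1 of wild type or either TgSREBP-2 array was left out.

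In Scap knockout the uridine phosphorylase gene Upp2 fell by 1.23 ± 0.09, Ces1d by 0.78 and Inmt by 0.94, while Alas1, the first enzyme of heme synthesis, rose by 0.84 ± 0.09. Tubb2a rose by 0.80, a call lost without replicate 2 of Scap knockout or either wild type array, and on the mean of its probe sets. Between the wild type pools Cyp7a1, Nampt, Ces1d and Tubb2a were lower on the high-protein diet and Ppara and Lpin1 higher, 4 and 2 of 17. Cyp7a1, the rate-limiting enzyme of bile acid synthesis, had 6.17 and 6.21 there against 7.50 and 7.63 on chow. Nampt lost this call without replicate 2 of chow-fed wild type or replicate 1 of the high-protein wild type.

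Because Per1 and Noct also answer to hormones, glucocorticoid and cAMP responsive genes were listed as well. Against their wild type pools, 7.37% of all genes were called with SREBP-1a, 2.57% with SREBP-2 and 1.66% after loss of Scap. The share was 5.19% between the transgenic pools and 5.62% between the wild type pools. Counts of this list and of the heat shock list below were not tested against these shares. Of 17 measured hormone responsive genes, Sgk1, Tat and Igfbp1 rose in TgSREBP-1a (1.04, 0.77 and 1.40). Pck1 and G6pc fell there by 1.66 and 1.28. Limma called 0 of 17 in TgSREBP-2, with 7 at an unadjusted p under 0.05, and only Cdkn1a in Scap knockout (0.59), without a call when replicate 2 of Scap knockout or replicate 1 of wild type was left out. Igfbp1 was called on its brighter probe set and not on the mean of its sets. Per1 was level in all 3 comparisons. Between the transgenic pools 5 were higher in TgSREBP-1a (Fkbp5, Sgk1, Tat, Dusp1 and Igfbp1) and 2 lower, where Noct was also lower. Fkbp5 and Sgk1 lost those calls without replicate 1 of TgSREBP-1a or replicate 2 of TgSREBP-2. Between the wild type pools Fkbp5, Pck1 and Igfbp1 were higher and Sgk1 lower on the high-protein diet, and Fkbp5 lost its call without replicate 1 of wild type on that diet. Of 7 measured heat shock genes that follow the rhythm of body temperature, Hspa8 rose (0.74) and Hspa1b fell by 0.66 in TgSREBP-1a. Hspa8 lost its call without replicate 1 of TgSREBP-1a or wild type replicate 2, and Hspa1b without replicate 2 of TgSREBP-1a. Limma called 0 of these 7 in TgSREBP-2 and Scap knockout, with 1 and 2 at an unadjusted p under 0.05.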

How the data were processed

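The authors deposited 1 table of log2 signals for 12488 probe sets on 10 arrays. RMA is the tool in the submitters' processing notes (its version is not given in the sources used here), whereas the design text speaks of Microarray Suite 5.0. The values ran from 2.68 to 14.03 with array medians of 6.37 to 6.4, as log2 values normalized between arrays would. Depth has no meaning for arrays, and their number limits the precision.

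Gene names come from the platform annotation and were brought up to date with RefSeq gene IDs (10817 matched). Those with several symbols (396), none (1193) or controls (66) were left out, and 8251 genes remained. All arrays were fitted together in limma 3.58.1 (R 4.3.3), a coefficient for each group, 5 contrasts, 5 degrees of freedom left for the residuals and Benjamini-Hochberg adjustment over all genes of a contrast. The script was tested on simulated data. Calls need an adjusted p under 0.05 and 1.5-fold.

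The members and lists were chosen with earlier results of these data known. Named were all 5 members and all measured genes of the core clock, REV-ERB and ROR, and PAR bZIP and NFIL3 lists. Every called gene of the rhythmic, hormone responsive and heat shock lists was named as well. For members spanning at least 1 log2, the 3 genes nearest in centred pool means were added. Of the marker lists only some called genes are named. Other genes named, and the motifs, were chosen after values were seen. Lists of cell type markers covered hepatocytes, macrophages, lymphocytes, endothelial and red cells and exocrine pancreas, among others not printed here. Promoter windows are from RefSeq, build GRCm38.p6.

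Arrays of the same replicate number deviated together within the transgenic set (correlations 0.46 to 0.61 among 3 pairs of pools) and the Scap set (0.30), and not between sets (-0.48 to -0.12), so the number was also fitted as a block within each set. Other alternatives were renormalization, an offset of 32, a filter on dim genes, the mean of all probe sets, fewer arrays, a robust fit and leaving out each array.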

Additional observations from a re-analysis of the deposited data

How the results depend on the processing

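For 5 members in 5 comparisons, 277 of 310 alternative values kept their direction and side of the threshold. The replicate block changed no call of a member, and no alternative moved a count of called genes over all genes by more than 1.5 times. The counts ran from 456 to 734 in TgSREBP-1a, 143 to 255 in TgSREBP-2, 100 to 150 in Scap knockout, 343 to 479 between the transgenic pools and 311 to 593 between the wild type pools. With 32 added on the linear scale, which shrinks differences of dim genes by construction, Bhlhe40 fell under 1.5-fold in TgSREBP-2 (0.53), Scap knockout (-0.50) and between the wild type pools (-0.49), and Dbp in TgSREBP-2 (0.36). The filter on dim genes dropped Per2 and Dbp, so neither has a value under it. The fit to a set alone has none for the wild type pools.

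Signs turned only for differences near 0 that were called under no setting. With quantile normalization again, Per1 in TgSREBP-2 stood at -0.05. Leaving out single arrays moved Per1 from -0.10 to 0.04 in TgSREBP-1a, -0.03 to 0.06 in TgSREBP-2, -0.01 to 0.04 in Scap knockout and -0.11 to 0.02 between the transgenic pools. It moved Dbp from -0.13 to 0.22 in TgSREBP-1a, -0.07 to 0.10 in Scap knockout and -0.12 to 0.22 between the wild type pools. Per2 ran from -0.07 to 0.12 in TgSREBP-2 and -0.11 to 0.07 between the wild type pools, and Noct from -0.19 to 0.02 in Scap knockout.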
